A study of Homo sapiens with 3 samples.

Results

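The comparison of 10 nM RTX at day 14 with DMSO at day 0 asked which gene knockouts became more or less frequent in NUGC3 cells, a human gastric cancer line, while the cells grew under the drug. Its members were all guides of the GeCKO knockout library that target a gene or a microRNA, 61916 of the 62916 guides in the tables, and the other 1000 are non-targeting guides. The series title concerns antifolate drugs, and the labels do not spell out RTX. The day 0 library is labelled DMSO and day 0, and the RTX library received 10 nM RTX for 14 days. A protocol note in the labels gives DMSO for 14 days to the day 0 group, against its title, and the titles were followed here. The remaining library, DMSO at day 14, did not enter the comparison and appears only as values set beside it. All 3 cultures are of the same cell line and carry the same library, and the day 0 and RTX sides were 1 library each. There is therefore no replicate check, no p-value is given, and every statement compares 2 libraries.

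In a pooled knockout screen each cell carries 1 guide that directs Cas9 to cut a gene, and the guide's share of the sequenced DNA stands for the share of cells with that knockout. A guide that leaves more descendants under the drug gains share, and one that leaves fewer loses it. Faster division and better survival cannot be told apart from guide shares. Classical antifolates enter cells mainly through the reduced folate carrier and are then given a tail of glutamates that holds them inside the cell. Many of them stop thymidylate synthesis, the step that makes the DNA building block dTMP, either directly or by starving it of reduced folate. The letters of the guides were not used here, so how many genomic sites a guide cuts was not examined.

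The day 0 library held 16547572 reads and the RTX library 17344507, with a median of 230 and 232 reads per guide. The spread of reads over guides was wider under RTX, with a Gini coefficient of 0.39 against 0.354 at day 0. The most abundant 1% of guides took 4.59% of RTX reads and 3.62% of day 0 reads. At this depth the counting error of a non-targeting guide's log2 ratio had a median SD of 0.138. Intervals below are 95% Clopper-Pearson intervals for the reads of 1 guide, and since PCR reads without molecular identifiers are not independent molecules they cover counting error only.

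Each guide was described by log2 of its normalized reads under RTX over day 0, with 5 added to both, so that changes of rare guides come out smaller than they were. The intervals are for the ratio without this addition, so they are not centred on the printed log2 ratio. A minimum of 10 normalized reads at day 0 left 61619 targeting guides measured and 297 not. Their median log2 ratio was -0.003 with an SD of 0.60, and the middle 95% ran from -1.37 to 1.08. The 991 measured non-targeting guides had a median of 0.11 and an SD of 0.56, with a middle 95% from -1.01 to 1.05. The centre of the non-targeting guides thus lay slightly above that of the targeting guides, and the lower tail was longer among targeting guides.

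At least 2-fold higher were 1959 targeting guides, 3.18% of those measured, and 30 non-targeting guides, 3.03%. At least 2-fold lower were 3301 targeting guides, 5.36%, and 27 non-targeting guides, 2.72%. A 2-fold gain of 1 guide was therefore about as frequent without a target as with one, while a 2-fold loss was more frequent with a target. Past 4-fold, 113 targeting guides were higher (0.183%) and 474 lower (0.769%), against 6 (0.605%) and 3 (0.303%) of the non-targeting guides. Among the 6378 measured guides to microRNAs, 3.14% were 2-fold higher and 6.19% 2-fold lower.

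The spread followed the number of reads at day 0. In the lowest quartile of targeting guides, with 10 to 137 reads at day 0, 7.88% were 2-fold higher and 11.7% lower. In the highest quartile, with 356 to 3271 reads, the shares were 0.715% and 1.53%. The SD of non-targeting guides fell over the same quartiles from 0.77 to 0.38. At an FDR below 0.05 in the authors' deposited values, 6945 guides gained and 2543 lost reads, and these took in 15.0% of the non-targeting and 15.1% of the targeting guides.

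Single guides with the highest ratios often stood alone in their gene. Of the 20 highest guides of scored genes, 10 had another guide of the gene at 2-fold or more, and of the 100 highest 26 had one, against 6.30% of all guides. A FUT5 guide went from 59 to 2067 reads, a log2 ratio of 5.01, and a NAALAD2 guide from 28 to 966, a ratio of 4.87. A POU3F1 guide went from 147 to 3196 reads, a ratio of 4.39. These sit beside a non-targeting guide that went from 182 to 1794 reads, a ratio of 3.26, so gains of this kind were also seen without a target.

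A gene's score was therefore the median log2 ratio of its measured guides. It was computed for 20150 genes with at least 2 measured guides, of which 18094 had 3, 1429 had 4 and 627 had 2. A gene was called higher or lower where its score was at least 1 or at most -1, a 2-fold change, and every measured guide had the same sign. Ranges given with a score run from its lowest to its highest guide, and guides of 1 gene are not replicates of the condition. The median score of all genes was -0.0049 and the median range within a gene was 0.81. By this rule 97 genes were higher, 0.481% of those scored, and 183 were lower, 0.908%. Every guide was past 2-fold in 17 of the higher genes (0.0844% of all scored) and 30 of the lower genes (0.149%).

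The gene with the highest score in the library was SLC19A1, the reduced folate carrier that brings folates and classical antifolates into the cell. Its 3 guides held 35, 199 and 357 reads at day 0 and 2578, 10090 and 43111 reads under RTX. In the DMSO library at day 14 they held 87, 284 and 414 reads. All 3 were far above both other libraries under RTX. The log2 ratios over day 0 were 6.01 (5.72 to 6.72), 5.62 (5.45 to 5.87) and 6.89 (6.76 to 7.06). The summed normalized reads of SLC19A1 guides were 93.9-fold higher than at day 0, and their share of the library went from 0.00357% to 0.322%.

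FPGS, the synthase that adds the glutamate tail to folates and antifolates, ranked 3 by score. Its guides held 216, 139 and 264 reads at day 0 and 1696, 8547 and 1491 under RTX, against 165, 48 and 306 in the DMSO library at day 14. The score was 2.94, with guides from 2.47 to 5.88, and the summed normalized reads were 18.9-fold higher. The guides of FPGS lay further apart than those of SLC19A1, and all 3 were past 5-fold. Of the 8 genes of folate uptake and polyglutamation, these 2 were called higher, against 0.481% of all genes, and the list's median was 0.11. GGH, the hydrolase that removes the glutamate tail, had a score of 0.20 with guides from -0.16 to 0.33. SLC46A1, the proton-coupled folate transporter, had -0.67 with guides from -2.15 to 0.89, and the folate receptor gene FOLR1 had -0.45. Those 3 did not meet the rule. None of 10 drug efflux transporters did either, with scores from -0.56 for ABCC5 to 0.52 for ABCG2.

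The median of 26 measured enzymes of the folate one-carbon cycle was -0.02, and none was called lower. MTHFD1, SHMT1 and SHMT2, which load and interconvert one-carbon units on folate, were not called. MTHFD1 was at -0.48, SHMT1 at 0.47 and SHMT2 at 0.00.

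The pathway that supplies dTMP and other deoxynucleotides was on the lower side, with 4 of 34 genes lower, none higher and a median of -0.23. Among all genes 0.908% were lower. TYMS, thymidylate synthase itself, held 388, 548 and 381 reads at day 0 and 246, 222 and 101 under RTX, a score of -1.29 with guides from -1.87 to -0.65. In DMSO at day 14 its guides held 505, 197 and 172 reads, and its DMSO score over day 0 was -1.28. CMPK1, a pyrimidine nucleotide kinase, scored -1.40 under RTX and -2.24 in DMSO. DHODH, an enzyme of pyrimidine synthesis, scored -1.16 and -1.43. SLC29A3, a nucleoside transporter, scored -1.21 under RTX and 0.14 in DMSO. Both culture comparisons share the day 0 library, and the difference between them was not tested. TK1, the salvage kinase for thymidine, had guides at -1.49, -1.02 and 1.30, so its guides disagreed. Of 16 genes of purine synthesis and salvage none was called, with a median of 0.06.

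Several knockouts of the machinery that modifies the wobble uridine of tRNAs gained share. Elongator, its partners and a sulfur-transfer pathway add side groups to this base that tune decoding. Of 21 measured genes of the list 7 were higher and 1 lower, against 0.481% and 0.908% of all genes, and the list's median was 0.68. ELP3, the catalytic subunit of Elongator, held 283, 259 and 495 reads at day 0 and 681, 1024 and 1269 under RTX, a score of 1.34. In DMSO at day 14 the same guides held 82, 125 and 220 reads, below day 0 for every guide. Subunits ELP2 (1.47) and ELP6 (1.16) were also called. ELP4 (0.78) and ELP5 (0.87) had every guide above 0 without reaching 2-fold.

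The sulfur-transfer branch showed the same direction in part. MOCS3, which activates sulfur for the ubiquitin-like carrier URM1, held 118, 433 and 357 reads at day 0 and 278, 1083 and 1063 under RTX, a score of 1.31, and 41, 221 and 144 in DMSO at day 14. CTU2, a subunit of the enzyme that puts the sulfur on the tRNA, scored 1.16, and its partner CTU1 scored 0.90. URM1 itself was at -0.09 with guides from -1.19 to 0.05. NFS1, the cysteine desulfurase at the head of the branch, was the called lower gene of the list at -1.22, and it also feeds iron-sulfur assembly. Another higher gene of the list, WDR4, modifies another tRNA position and lies on chromosome 21, and without chromosome 21 the list's median was 0.66. In DMSO over day 0 the list's median was -0.77, with ELP3 at -1.31, MOCS3 at -1.44 and ELP6 at -1.79.

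Several called genes belonged to membrane traffic and signalling. AP2S1 encodes the small subunit of AP-2, the adaptor that gathers cargo into clathrin-coated pits at the cell surface, and had the second highest score. Its guides held 291, 170 and 265 reads at day 0 and 452, 1436 and 2527 under RTX, log2 ratios of 0.62 (0.41 to 0.85), 3.03 (2.84 to 3.31) and 3.22 (3.06 to 3.43). The first guide thus moved far less than the other two. AP2M1, the medium subunit, scored 1.36 with 1 guide at 0.07. The large subunits were lower on the scale, with AP2B1 at 0.23, AP2A2 at 0.08 and AP2A1 at -0.02. Of the 15 genes of the AP-2 and clathrin list 2 were called higher, against 0.481% of all genes, 13 were above 0 and the median was 0.24.

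JAK1, a kinase of cytokine receptors, had guides that lay close together. They held 544, 315 and 171 reads at day 0 and 1407, 814 and 443 under RTX, ratios of 1.36, 1.35 and 1.34, and 637, 447 and 229 reads in DMSO at day 14. STAT3, a transcription factor activated by JAK kinases, scored 1.08 with guides at 1.08, 1.37 and 0.09. IL6ST, the shared receptor chain of interleukin-6 cytokines, scored 0.53 and TYK2 0.54, each with every guide above 0 and neither called. JAK2 (-0.13) and STAT2 (0.02) were not called, and the median of the 22 genes was -0.03. JAG1, a Notch ligand, scored 1.32 with guides from 1.12 to 1.37, going from 202, 225 and 246 reads to 533, 498 and 625. It was the called gene among 19 Notch pathway genes, a list drawn up after its value was seen, whose median was 0.01. FNTB, the catalytic subunit of farnesyltransferase, scored 1.37 with reads going from 390, 459 and 282 to 1067, 1199 and 581. FNTA, its partner subunit, scored -0.38, and 6 of the 8 genes of prenyl transfer, another list of that kind, were below 0.

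The series title names MYC, cohesin and Mediator, so these were read as groups. MYC, the transcription factor that drives growth genes, held 246, 117 and 219 reads at day 0 and 575, 179 and 511 under RTX. Its ratios were 1.20 (1.00 to 1.44), 0.59 (0.26 to 0.95) and 1.20 (0.98 to 1.45), a score of 1.20 that met the rule. In DMSO at day 14 its guides held 268, 36 and 90 reads, a DMSO score of -1.39 over day 0. MAX, the partner of MYC, scored 0.14 with guides from -0.17 to 1.99, and ZBTB17, another partner, 0.78 with all guides above 0. Of the 13 MYC network genes 1 was called higher, against 0.481% of all genes, and the median was 0.16.

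None of the 7 genes of the Mediator kinase module was called. CCNC, the cyclin of that module, came nearest at 0.94, with reads going from 465, 94 and 257 to 904, 193 and 412. MED12 scored 0.40 with guides from 0.27 to 0.49, and CDK8 0.48 with guides from -0.40 to 0.65. Core Mediator had 0 of 26 genes called, with scores from -1.41 for MED8 to 0.85 for MED23 and a median of 0.03, which was -0.07 when the ratios were centred on the non-targeting guides. In DMSO over day 0 the core list's median was -0.57. Cohesin and its regulators also had 0 of 20 called and a median of -0.11. The cohesin subunit SMC3 scored -1.76 but had 1 guide at 0.41. RAD21 (0.16), STAG2 (-0.10), SMC1A (-0.26) and NIPBL (0.20) were close to 0, and PDS5A scored 0.10 under RTX and -2.77 in DMSO.

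Genes of ribosomal RNA production included called genes in both directions. Of 20 genes of RNA polymerase I, which transcribes ribosomal RNA, and its factors 3 were higher and 1 lower, with a median of 0.08. Among all genes 0.481% were higher and 0.908% lower. ZNRD1, a polymerase I subunit, scored 1.30, with reads going from 157, 249 and 223 to 397, 780 and 458, and to 47, 118 and 144 in DMSO at day 14. POLR1E scored 1.02 and TAF1C, a subunit of the promoter selectivity factor, 1.02 with 1 guide at 0.01. The lower gene was POLR2K at -1.03, a subunit that polymerases I, II and III share. UTP15 (1.25) was the called gene among 55 of the small-subunit processome, whose median was 0.12. Small-subunit ribosomal proteins had 0 of 30 called and a median of 0.07. Large-subunit ribosomal proteins had 3 of 46 lower, RPL11 (-1.73), RPL8 and RPL21, and a median of -0.18. The DMSO medians over day 0 were -0.78 for polymerase I, -0.53 for the processome, -0.50 for small-subunit and -0.85 for large-subunit proteins. Centred on the non-targeting guides, the medians of polymerase I and of small-subunit proteins turned to -0.03 and -0.04.

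Further genes were called outside any direction of their list. CDK2, a kinase of the G1 to S step, scored 1.79 with reads going from 708, 277 and 111 to 2503, 977 and 141, and its last guide was at 0.32. It was the called gene of 25 in the G1 list, whose median was 0.04. CUL2, the scaffold of the ligase that VHL guides to hypoxia factors, scored 1.30, and VHL scored 0.88 with guides from 0.69 to 1.00. RBX1, the ring subunit that cullin ligases share, scored -1.38. CTCF, which organises chromatin loops, scored 1.04 with guides at 0.06, 1.04 and 1.35. MMS19, which delivers iron-sulfur clusters to DNA enzymes, scored 1.29 with guides at 1.29, 1.82 and 0.15. SWI/SNF remodelling genes had 0 of 23 called, 18 above 0 and a median of 0.22, with BRD7 highest at 0.81. NF2 (0.17), a growth suppressor, was not called. Chosen after their values were seen, ATXN2L (1.90), LSM12 (1.89), NAA60 (1.62), RAB11A (1.40) and NRBP1 (1.08) were among the other higher genes.

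Many of the higher genes lay on chromosome 21. Of the 97 higher genes 44 were on this chromosome, and of the 17 with every guide past 2-fold 10 were. Of its 231 scored genes 217 (93.9%) had a score above 0, against 49.6% of all genes, and 153 had every guide above 0, against 14.0% of all genes. The median score was 0.69 with quartiles at 0.41 and 0.95, while the medians of the other 22 chromosomes with over 100 genes ran from -0.12 to 0.07. In DMSO over day 0 the median of chromosome 21 was 0.03. None of its genes was called lower.

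The raised level ran along the whole chromosome. In gene order the median was 0.69 over the 217 genes before SLC19A1 and 0.68 over the 13 after it. Along 12 consecutive blocks the median stayed between 0.50, at hsa-mir-3648 to TMPRSS15, and 0.91, at AGPAT3 to KRTAP10-8. The keratin-associated proteins, which build hair, showed the split by position most plainly. The 48 on chromosome 21 had a median of 0.67, 46 of them were above 0 and 10 were called. The 41 elsewhere had a median of -0.01 and none was called.

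The highest chromosome 21 genes after SLC19A1 stood above that level. PDXK, which makes the active form of vitamin B6, held 91, 22 and 292 reads at day 0 and 510, 251 and 767 under RTX, a score of 2.42 with guides from 1.37 to 3.24. In DMSO at day 14 its guides held 184, 27 and 326. HLCS, which attaches biotin to carboxylases, scored 2.19 with guides from 0.76 to 2.38. ADARB1, an RNA-editing deaminase, scored 1.58 and went from 124, 182 and 399 reads to 347, 558 and 1292. The others with every guide past 2-fold were TCP10L (1.36), AIRE, POFUT2, GRIK1, C21orf33, KRTAP13-1 and KRTAP13-3. GART, a purine enzyme that some antifolates inhibit, scored 1.00 with 1 guide at -0.38 and was not called, beside a chromosome median of 0.69. The lowest gene of the chromosome was the chaperonin subunit CCT8 at -0.91. What part the level of the chromosome has in any single score on it was not tested.

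The 19 microRNA genes of chromosome 21 followed its level, with a median of 0.66, 17 above 0 and none called. Among them hsa-mir-99a scored 0.71, hsa-mir-155 0.68, hsa-let-7c 0.64, hsa-mir-125b-2 0.59 and hsa-mir-802 0.57. The mature forms of the genes named are shown as examples with scores near that median, and each carries another seed. The scores of all 19 ran from -0.60 to 0.98, and the guides of hsa-mir-125b-2 from -0.26 to 1.53. The sequences are RefSeq's on GRCh38.p14, 5′ to 3′, all from the plus strand, with the seed (bases 2 to 8) in capitals.
hsa-miR-99a-5p: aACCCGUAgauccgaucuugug
hsa-let-7c-5p: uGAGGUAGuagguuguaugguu
hsa-miR-125b-5p: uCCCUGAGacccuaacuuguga
hsa-miR-155-5p: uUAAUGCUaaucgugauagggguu
hsa-miR-802: cAGUAACAaagauucauccuugu
The first 3 lie in the first block of the chromosome, at chr21:16539101-16539122, chr21:16539838-16539859 and chr21:16590253-16590274. The others are at chr21:25573983-25574006 and chr21:35720732-35720754.

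A second stretch with a raised level, picked after its values were seen, ran on chromosome 1 from RBP7 to ALDH4A1. Its 109 genes had a median of 0.40 with quartiles at 0.17 and 0.60, 92 (84.4%) were above 0, and 46 (42.2%) had every guide above 0. Called higher were 3 of the 109 (2.75%), against 0.481% of all genes, among them TNFRSF1B (1.07) and ALDH4A1 (1.00). The median was 0.14 over the 132 genes before the stretch and 0.17 over the 100 after it. In DMSO over day 0 the stretch had a median of -0.04. Windows of 25 genes outside both stretches had medians from -0.39 to 0.32, and windows on chromosome 21 from 0.45 to 0.90. Without both stretches, 50 genes were higher.

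Among 1654 microRNA genes in all 1 was higher (0.0605%) and 13 were lower (0.786%), with a median of -0.04. The shares over all genes were 0.481% and 0.908%. The higher one was hsa-mir-205 on chromosome 1, outside the stretch. Its 4 guides held 342, 69, 601 and 311 reads at day 0 and 1054, 259, 1074 and 577 under RTX, a score of 1.24 with guides from 0.82 to 1.83. In DMSO at day 14 they held 459, 158, 780 and 155. Its mature forms are shown as those of the called gene, with the seed in capitals, from chr1:209432166-209432187 and chr1:209432203-209432223 on the plus strand of GRCh38.p14.
hsa-miR-205-5p: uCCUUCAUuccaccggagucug
hsa-miR-205-3p: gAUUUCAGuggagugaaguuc

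Of the lower microRNA genes, hsa-mir-566, hsa-mir-663a and hsa-mir-5096 were the ones taken up by the rule for named genes. For hsa-mir-566 the guides held 8, 147, 41 and 32 reads at day 0 and 6, 58, 0 and 2 under RTX, a score of -2.41, and 0, 27, 0 and 0 in DMSO at day 14. It was low in both cultures. For hsa-mir-663a the score was -1.14 and for hsa-mir-5096 -1.30. The mature form of hsa-mir-663a, from chr20:26208243-26208264 on the minus strand, has a seed made of G and C alone and is shown for that.
hsa-miR-663a: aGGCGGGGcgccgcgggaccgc

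Among the lower genes TXN, which encodes thioredoxin, the reductant of ribonucleotide reductase and peroxiredoxins, had the largest weakest guide. Its guides held 355, 77 and 251 reads at day 0, 69, 0 and 68 under RTX, and 184, 43 and 42 in DMSO at day 14. The score was -2.29 under RTX and -1.09 in DMSO, and every guide was past 3-fold lower under RTX. The guide at 0 was at least 25.8-fold lower, against a floor of 3 counts. PRDX1, a peroxiredoxin that thioredoxin reduces, scored -1.60 on 2 measured guides, which went from 161 and 180 reads to 60 and 47, while its other guide had 7 reads at day 0. Its DMSO score was -2.59. Of 16 genes of this list 2 were lower, both named here, against 0.908% of all genes, and the median was -0.18. TXNRD1, the cytosolic thioredoxin reductase, scored 0.16 and GSR, the glutathione reductase, 0.64.

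The vacuolar proton pump, which acidifies lysosomes, was the list with the lowest median, -0.88. Of its 19 genes 17 were below 0 and 3 were called lower, against 0.908% of all genes. ATP6V0C, the proteolipid of the membrane ring, held 184, 278 and 74 reads at day 0 and 54, 34 and 20 under RTX, a score of -1.69. In DMSO at day 14 its guides held 23, 94 and 2 reads, a DMSO score of -2.90. ATP6V1H (-1.01) and the assembly factor VMA21 (-1.26, with 1 guide at -0.02) were the others, with DMSO scores of -1.48 and -0.23. Most other members lay between -0.5 and -1 without meeting the rule, such as ATP6AP1 at -0.88 with every guide below 0. The exceptions above 0 were ATP6V1D (0.29) and ATP6V0E1 (0.45). In DMSO over day 0 the list's median was -0.45.

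Genes that guard DNA replication were also low. In the ATR-CHK1 checkpoint, which halts the cycle when replication stalls, 4 of 17 were lower and none higher, with a median of -0.54. The share of lower genes over all genes was 0.908%. PKMYT1, a kinase that holds CDK1 inactive, scored -2.05, with reads going from 180, 146 and 128 to 40, 70 and 26, and to 35, 52 and 3 in DMSO at day 14. HUS1, a subunit of the checkpoint clamp, scored -1.19 and RAD17, its loader, -1.13, against DMSO scores of -0.57 and -0.79. CHEK1, the effector kinase, scored -1.12 and went from 117, 404 and 386 reads to 28, 302 and 176. In DMSO at day 14 its guides held 41, 168 and 118 reads, a DMSO score of -1.55. The other clamp subunits RAD9A (-0.96) and RAD1 (-0.70) missed the rule, and ATR scored -0.60. The phosphatase gene CDC25A, which opposes the checkpoint, was at 0.45. In DMSO the list's median was -0.35, and the difference was not tested.

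Of 54 DNA replication genes 3 were lower and none higher, with a median of -0.37, among them PCNA (-1.27), the sliding clamp, and RPA3 (-1.32), which coats single strands. For this and the mitotic list below, the share of lower genes over all genes was 0.908%. Homologous recombination and Fanconi genes had 0 of 31 called and a median of 0.12. Base excision repair of uracil had 0 of 20 called and a median of -0.04. Of 40 mitotic genes 5 were lower, with a median of -0.36. MAD2L1, of the spindle checkpoint, scored -2.02, with reads going from 80, 213 and 84 to 27, 45 and 17. CCNA2, the S and G2 cyclin, scored -2.02 with 1 guide at 0 under RTX. In DMSO over day 0 the list medians were -0.55 for DNA replication and -0.70 for mitotic genes. They were -0.14 for recombination and Fanconi genes and 0.00 for base excision repair. MAD2L1 scored -2.02, CCNA2 -1.89, PCNA -0.61 and RPA3 -0.98 in DMSO. The differences between cultures were not tested.

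Genes of RNA making and processing also included lower ones. The spliceosome core had 7 of 55 lower, none higher and a median of -0.35, led by PRPF8 (-1.64), its central scaffold, and SNRPD3 (-1.59). For this and the lists below, the share of lower genes over all genes was 0.908%. DDX39B, a helicase of splicing and mRNA export, scored -2.19 with reads going from 319, 163 and 341 to 29, 32 and 136. RNA polymerase II initiation and elongation had 3 of 51 lower and a median of -0.29. CNOT3, a subunit of the CCR4-NOT deadenylase that shortens poly(A) tails, scored -1.91, and CNOT2 scored -1.07. The CCR4-NOT median was -0.21, and it was 0.14 over guides with a minimum of 50 normalized day 0 reads. The proteasome had 1 of 33 lower, with a median of -0.29, and the chaperonin TRiC with prefoldin 1 of 14, with a median of -0.43. Mitochondrial genes were shifted with none called, with 58 of 76 mitochondrial ribosome genes and 43 of 49 complex I genes below 0, against 10162 of the 20150 genes scored. Their medians were -0.27 and -0.28. In DMSO over day 0 the list medians were -0.77 for the spliceosome, -0.64 for polymerase II and -0.70 for the proteasome. They were -0.54 for the mitochondrial ribosome, -0.25 for complex I, -0.38 for TRiC with prefoldin and -0.12 for CCR4-NOT. PRPF8, SNRPD3, DDX39B, CNOT3 and CNOT2 scored -1.26, -1.78, -1.97, -1.59 and -0.21 in DMSO. The differences between cultures were not tested.

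Some lower genes shared a complex that was listed only after their values were seen, which makes these counts descriptions. Over all genes 0.908% were lower. In the core of the SCF ubiquitin ligase 4 of 11 were lower. SKP1, its adaptor, went from 702, 184 and 324 reads to 272, 41 and 98, a score of -1.68, and CUL1, RBX1 and ARIH1 scored -1.22, -1.38 and -1.12. In DMSO over day 0 SKP1, CUL1, RBX1 and ARIH1 scored -1.91, -0.87, -0.91 and -2.18. The SCF list's median was -0.38 under RTX and -0.76 in DMSO. In TRAPP, a tethering complex of the secretory pathway, 3 of 15 were lower and 12 were below 0. The TRAPP list's median was close to 0 in both cultures, -0.06 under RTX and 0.01 in DMSO. TRAPPC4 had the lowest score of all genes at -3.05, with reads going from 36, 208 and 75 to 0, 19 and 32, and to 7, 18 and 96 in DMSO at day 14. TRAPPC11 scored -1.40 and TRAPPC8 -1.31, against -2.19 and -1.41 in DMSO. In COPI, the coat of vesicles that return to the endoplasmic reticulum, 3 of 13 were lower, with COPA at -1.56. The COPI list's median was -0.23 under RTX and -0.16 in DMSO. The DMSO score of COPA was -1.07.

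Lower genes whose DMSO scores were near 0 can be set beside these. RDX, the membrane linker radixin, went from 68, 90 and 144 reads to 9, 35 and 45, a score of -1.58, and held 75, 35 and 150 in DMSO at day 14. ITGAV, integrin alpha V, scored -1.18 under RTX and -0.05 in DMSO. ANKRD53 scored -1.44 and -0.11, with reads going from 122, 111 and 76 to 44, 38 and 9, and to 122, 205 and 78 in DMSO. Of the 26 integrin adhesion genes ITGAV and the integrin activator TLN1 (-1.29) were the 2 lower ones, against 0.908% of all genes. The list's median was 0.00, and TLN1, unlike ITGAV, was also low in DMSO, at -1.32. Over all 183 lower genes the median was -1.23 under RTX and -1.09 in DMSO over day 0, and 95 had a score of -1 or less in DMSO too. Over the 97 higher genes the medians were 1.22 and 0.01, and 1 had a score of at least 1 in DMSO. The rule chose these genes by their RTX scores, so the pairs of medians are descriptions.

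Complete loss of a guide was rare. Under RTX 181 of the 61916 targeting guides had no reads, 10 of them with at least 50 reads at day 0. So did 4 of the 1000 non-targeting guides, so complete loss was not more frequent with a target. A guide to DAD1, a subunit of the enzyme that adds sugar chains to proteins, went from 166 reads to 0, at least 55.6-fold lower, with 33 reads in DMSO at day 14. A guide to RBM42 went from 155 reads to 0, at least 51.9-fold lower, and one to WDR70 from 89 to 0, at least 29.8-fold lower. In DMSO at day 14 the RBM42 guide held 45 reads and the WDR70 guide 0. The remaining guides of this kind had 77 reads or fewer at day 0. At day 0 itself 23 targeting guides had no reads, and 17 of those had reads under RTX.

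Genes with little use outside specialised tissues gave a view of scores without a known role here. Of 364 olfactory receptors none was higher and 2 were lower (0.549%), OR7G1 (-1.10) and OR1J4, and the list's median was -0.02. Among all genes 0.481% were higher and 0.908% lower. Of the 52 listed gene groups 24 had a median above 0 and 28 below. An edgeR exact test over the recovered reads, with the dispersion taken from the non-targeting guides and 1 library per side, compares these libraries and not the conditions. It had at least 2 guides called for 6 higher genes, SLC19A1, FPGS, AP2S1, PDXK, HLCS and BRAP, and for 9 lower genes, among them TXN, TRAPPC4, PKMYT1 and DDX39B. By the rule on scores, 5 of these 6 and 7 of these 9 were also called.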

How the data were processed

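Guides in genomic DNA from NUGC3 cells were amplified by PCR and sequenced, 1 library per condition, per the labels' protocols. The authors deposited guide tables made with MAGeCK 0.5.7, and hg19 is the build named, per the submitters' processing notes. The read-to-guide matching step is not stated there. The values in the deposited tables are a normalized signal, reads that the authors divided by a size factor per library, per the file headers and values. The deposited tables also hold the authors' p-value and FDR per guide.

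Dividing the deposited signal by the worth of 1 read gave whole reads for at least 99.9968% of values (tolerance 0.1). Read numbers come from this step. The log2 ratio used the deposited normalized values, a pseudocount of 5 and a minimum of 10 normalized reads at day 0, in Python 3.11.15 with pandas 2.3.3. Gene scores are medians over at least 2 guides. Date-like names (23, with 72 guides), which a spreadsheet makes of some symbols, were left as given. Their guides were counted among the targeting guides, but the names got no gene score. RefSeq tables gave chromosomes for 19986 of 20150 genes. The count test used edgeR 4.0.16. Scripts were tested on simulated data.

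The members and gene lists were chosen with earlier results of these data known. Named were the 20 higher and 20 lower genes with the largest weakest guide, up to 4 called members per list and direction, 3 microRNA genes per direction, the 10 highest and lowest guides, and genes chosen by name for their roles. Alternatives were other pseudocounts, filters, scalings, gene summaries and sizes, leaving out chromosome 21, and the count test. A few named genes are not reported here.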

Additional observations from a re-analysis of the deposited data

How the results depend on the processing

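With 1 library per side no result has a replicate check, and no replicate could be left out. No paired analysis was possible because each group has 1 library. The genes called were 97 higher and 183 lower, 34.64% of them higher. Centred on the non-targeting guides, which moved the median of all genes to -0.11, they were 60 and 283, 17.49% higher, the higher genes with every guide past 2-fold were 11, and 11 of the 52 list medians were above 0. With equal library totals they were 76 and 226. With a pseudocount of 20 the lower guides were 2133, the lower genes 112 and those with every guide past 2-fold 18. At a log2 ratio of 1.5 the guides were 437 higher and 1207 lower, and the genes 14 and 44. Without chromosome 21 the higher genes were 53, 7 of them with every guide past 2-fold. Without RBP7 to ALDH4A1 as well, chosen after seeing the data, they were 50 and 7. The edgeR exact test, also added then, called 116 higher and 413 lower guides, and 6 and 9 genes. Those guides were of 61619 targeting guides, and the exact test also called 6 of the 991 non-targeting guides higher and 3 lower. A higher call by it was thus no rarer without a target than with one. The mean of guides gave 88 and 236 genes, of which 60 and 145 were also called with the median. No called gene among those named changed sign. The uncalled MED15 and PDS5A turned below 0 with centring on the non-targeting guides, MED15 also with equal totals, and SHMT2, at about 0, changed sign with the mean of guides. List medians changed sign in up to 13 of 52, under centring on the non-targeting guides. The lowest read quartile limits single guides most.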
